A study of Homo sapiens with 15 samples.

Results

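The comparison described is that of DU145 cells given a miR-224 mimic with untransfected DU145 cells, on 4 of the 15 arrays of the series. DU145 is a human prostate cancer line that came from a brain metastasis. The 2 miR-224 arrays carry the letters a and c in their titles and the 2 untransfected arrays the letters b and c. A single array of DU145 cells given a scrambled mimic (letter b) was used to mark changes that it shared, and 2 arrays of a miR-452 mimic (letters a and c) entered the same fit. Mimics were used at 20 nM with a cationic lipid reagent, the medium was replaced after 6 h, and RNA was taken at 48 h. The labels list the untransfected cells as having no treatment, so the miR-224 group differs from them by the mimic, by the lipid and by the transfection itself, which cannot be told apart on these 4 arrays. A second scrambled array was set aside by the authors for poor performance. Whether the duplicates were separate cultures is not stated, and the p-values reflect the spread between single arrays, which may be technical.

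A microRNA guides Argonaute proteins to messenger RNAs through its seed, a short stretch near its 5′ end that pairs with matching sites, most of them in 3′ untranslated regions. Bound messages are translated less and are deadenylated and decayed, so a mimic, a synthetic duplex that supplies the mature strand, can lower the levels of messages that hold sites as well as change others further downstream. miR-224 and miR-452 lie together in an intron of GABRE on the X chromosome, and the series title names methylation of that locus in prostate cancer.

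The mature sequences of the transfected microRNA and of the 5p arm of its neighbour are shown because every result rests on these mimics. They are from RefSeq (GRCh38.p14), are written 5′ to 3′, and have the seed, bases 2 to 8, in capitals. The labels do not name the arm that the mimic supplied, so both miR-224 arms are given. The miR-224-5p locus is chrX:151958628-151958652 on the minus strand. The 3 seeds differ from one another.
hsa-miR-224-5p: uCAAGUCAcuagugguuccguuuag
hsa-miR-224-3p: aAAAUGGUgcccuagugacuaca
hsa-miR-452-5p: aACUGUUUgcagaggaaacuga

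Values are log2 levels from Human Gene 1.0 ST arrays. Across the series they ran from 4.49 to 14.18. Precision is limited by how few arrays each group has. The spread of levels within an array moved with the group: the standard deviation over features was 1.564 and 1.559 on the miR-224 arrays, 1.571 on the scrambled array, and 1.647 and 1.650 on the untransfected arrays. High levels were thus lower and low levels higher on the transfected arrays. The median change of miR-224 against untransfected cells in 5 equal bins of genes from the lowest to the highest mean level was 0.11, 0.16, 0.02, -0.16 and -0.14, and for the scrambled array it was 0.10, 0.17, 0.04, -0.16 and -0.16. Falls took 1.8%, 6.86%, 17%, 28.4% and 23.5% of the genes in those bins, so the share of a gene list is set beside that of the bin where its median level lies. After quantile normalization of the DU145 arrays the medians for miR-224 lay between 0.01 and 0.04. The epithelial identity of the cells was clear on every array, with KRT8 at 11.68 and 11.71 with miR-224, 12.17 with the scrambled mimic and 12.12 and 12.10 in untransfected cells. All 6 epithelial identity genes lay above the median level of all genes, whereas 7 of 10 luminal, 6 of 8 neuroendocrine, 11 of 12 fibroblast, 9 of 10 leukocyte and 10 of 10 endothelial markers lay below it.

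**Figure D1:**
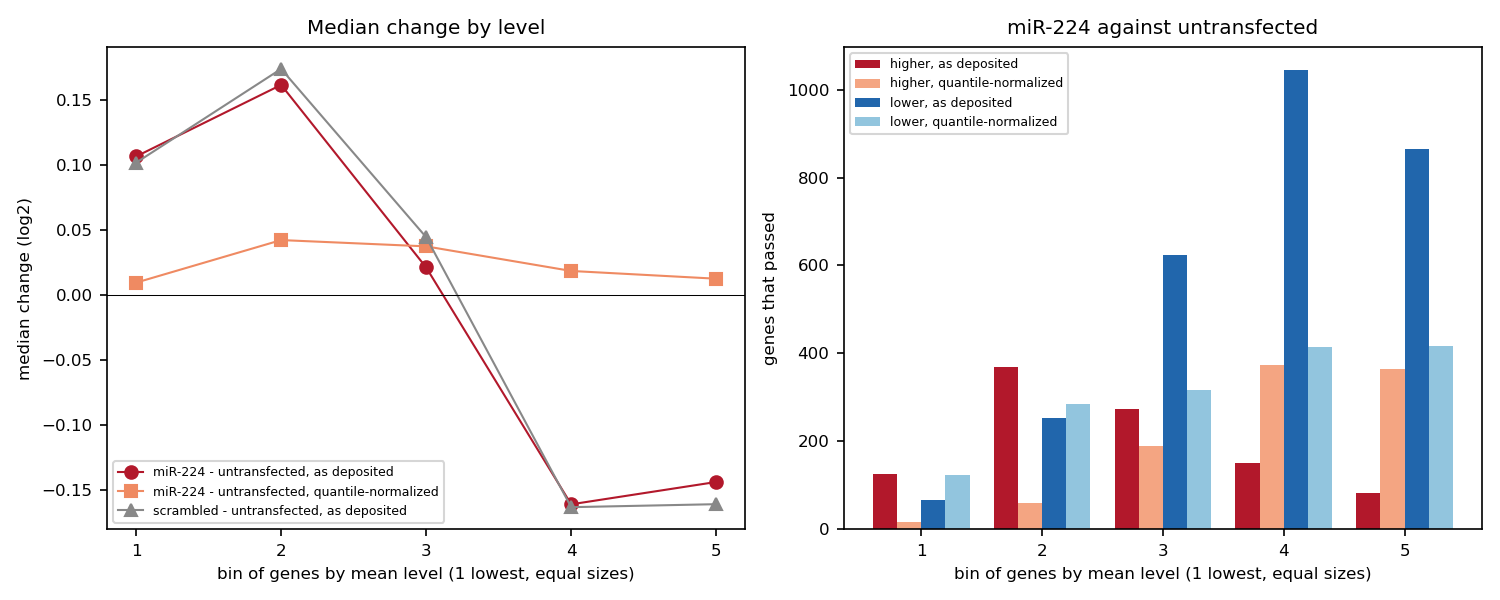
Left, the median change (log2, y axis) of genes in 5 equal bins of mean level (x axis) for miR-224 against untransfected DU145 cells as deposited and after quantile normalization, and for the scrambled array against untransfected cells. Right, the genes that passed in each bin. As deposited, the 2 upper bins held 1045 and 864 falls and 151 and 81 rises, and after quantile normalization they held 414 and 416 falls and 373 and 364 rises.

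With miR-224, 2850 of 18377 genes were lower and 1000 were higher than in untransfected cells, which is 15.5% and 5.44% of the genes tested and 21% together (limma, Benjamini-Hochberg adjusted p under 0.05). Most changes were small. A fall of more than 2-fold was seen for 73 genes and a rise of that size for 1, the median size was 0.46 for falls and 0.39 for rises on the log2 scale, and the median change over all genes was 0.02. Quantile normalization left 1555 falls (8.46%) and 1002 rises (5.45%), so the share of rises among the calls was 39.2% there against 26% as deposited. Single arrays mattered for the counts. The calls numbered 701 without untransfected array b, 789 without untransfected array c, 1982 without miR-224 array a and 1103 without miR-224 array c, against 3850 with all arrays. They numbered 7161 when 1 miR-452 array, a or c, was left out or when the 4 compared arrays were fitted alone.

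A change with miR-224 was marked where scrambled minus untransfected had the same sign and at least 50% of its size. The mark fell on 2005 of the 2850 falls (70.35%) and 866 of the 1000 rises (86.6%). Counts of marked genes given for the lists below are to be read beside these shares. Both differences are taken from the same 2 untransfected arrays, so a mark arises in part from those arrays alone. The mark sorts the changes, and its counts do not measure an effect of transfection. Both miR-224 arrays lay beyond all 3 control arrays, without the mark, for 844 falls and 134 rises. Against the scrambled array itself 206 of the falls and 23 of the rises also passed, where 1.31% of all genes were lower and 0.631% higher. That comparison has 1 array on the control side, whose spread was taken as that of the other DU145 groups, and it shares the miR-224 arrays with the first. Of the 73 falls of more than 2-fold, 59 lay beyond all control arrays without the mark. The marked changes numbered 1624 after quantile normalization and 397, 472, 1337 and 609 without untransfected arrays b and c and miR-224 arrays a and c, against 2871 as deposited. The 229 changes that passed against both controls became 86, 83, 68 and 63 without those arrays in the same order. A count or call given below without a miR-224 or an untransfected array held for both arrays of that group, left out in turn. Not every list count without an array is given below, and a count not given could also differ from the one reported.

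The 15 largest falls beyond the control arrays are described by the known role of each gene. EPCAM, an epithelial cell adhesion molecule, stood at 7.74 and 7.27 with miR-224, 8.71 with the scrambled mimic and 9.02 and 9.07 in untransfected cells. It fell by 1.54 ± 0.17 (adjusted p = 0.000937), written here and below as the log2 difference ± its standard error from limma, with 2 arrays in each group. Of the miR-224 arrays, array c was lower than array a. CYRIB, which binds RAC1 and restrains actin branching, stood at 7.76 and 7.66 with miR-224, 9.11 with the scrambled mimic and 9.27 and 9.21 in untransfected cells. It fell by 1.53 ± 0.10 (adjusted p = 0.000208), and its scrambled level was within 0.2 of the untransfected levels. API5, an inhibitor of apoptosis reported as a miR-224 target, stood at 7.97 and 7.81 with miR-224, 9.11 with the scrambled mimic and 9.35 and 9.47 in untransfected cells and fell by 1.52 ± 0.10 (adjusted p = 0.000208). SLFN11, which acts on stalled replication forks, stood at 7.71 and 7.72 with miR-224, 8.88 with the scrambled mimic and 9.09 and 9.12 in untransfected cells and fell by 1.39 ± 0.08 (adjusted p = 0.000208). That no miR-224 array of these genes overlapped with a control array follows from how the 15 genes were chosen. The choice also set a distance from the scrambled array, so a pass of these genes against it is not separate evidence.

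Of these 15 genes, 5 others encode enzymes. HSD17B11, a dehydrogenase of lipid droplets, stood at 8.0 and 8.11 with miR-224, 9.23 with the scrambled mimic and 9.45 and 9.41 in untransfected cells and fell by 1.38 ± 0.10 (adjusted p = 0.000208). CDS2, which makes CDP-diacylglycerol for phosphatidylinositol, stood at 8.34 and 8.21 with miR-224, 9.38 with the scrambled mimic and 9.68 and 9.63 in untransfected cells and fell by 1.38 ± 0.09 (adjusted p = 0.000208). ACAT1, the mitochondrial acetoacetyl-CoA thiolase, stood at 6.89 and 6.95 with miR-224, 7.95 with the scrambled mimic and 8.23 and 8.22 in untransfected cells and fell by 1.31 ± 0.09 (adjusted p = 0.000208). The miR-224 arrays lay well below the scrambled array, itself a little below the untransfected arrays, in each of the 3 genes. MTRR, which reactivates methionine synthase, stood at 8.53 and 8.53 with miR-224, 9.80 with the scrambled mimic and 9.94 and 9.86 in untransfected cells and fell by 1.38 ± 0.09 (adjusted p = 0.000208). PRDX3, a mitochondrial peroxiredoxin, stood at 9.36 and 9.29 with miR-224, 10.45 with the scrambled mimic and 10.61 and 10.61 in untransfected cells and fell by 1.28 ± 0.08 (adjusted p = 0.000208). The untransfected arrays of both genes agreed to within 0.1, and the scrambled array was close below them.

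The other 6 of the 15 fell by similar amounts. ASH2L, a subunit of histone H3 lysine 4 methyltransferases, stood at 7.83 and 7.74 with miR-224, 8.88 with the scrambled mimic and 9.19 and 9.10 in untransfected cells and fell by 1.36 ± 0.10 (adjusted p = 0.000276). TRAPPC4, a subunit of the TRAPP tethering complexes, stood at 7.52 and 7.53 with miR-224, 8.62 with the scrambled mimic and 8.84 and 8.92 in untransfected cells and fell by 1.36 ± 0.10 (adjusted p = 0.000208). TMEM30A, the partner subunit of phospholipid flippases, stood at 7.57 and 7.73 with miR-224, 8.45 with the scrambled mimic and 8.99 and 9.01 in untransfected cells and fell by 1.35 ± 0.12 (adjusted p = 0.000483). All 3 had the scrambled array between the groups, nearer to the untransfected arrays. TMEM9B fell by 1.29 ± 0.10 (adjusted p = 0.000276) and TMEM230, a protein of secretory vesicles, fell by 1.29 ± 0.09 (adjusted p = 0.000208). E2F5, a repressive E2F factor, stood at 6.81 and 6.69 with miR-224, 7.51 with the scrambled mimic and 8.03 and 8.06 in untransfected cells and fell by 1.29 ± 0.18 (adjusted p = 0.00239). E2F5 was the 1 gene of the 15 that did not pass against the scrambled array (adjusted p = 0.142). For the other 14 that adjusted p lay between 0.00208 and 0.0308. All 15 passed after quantile normalization and with each DU145 array left out in turn.

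**Figure D2:**
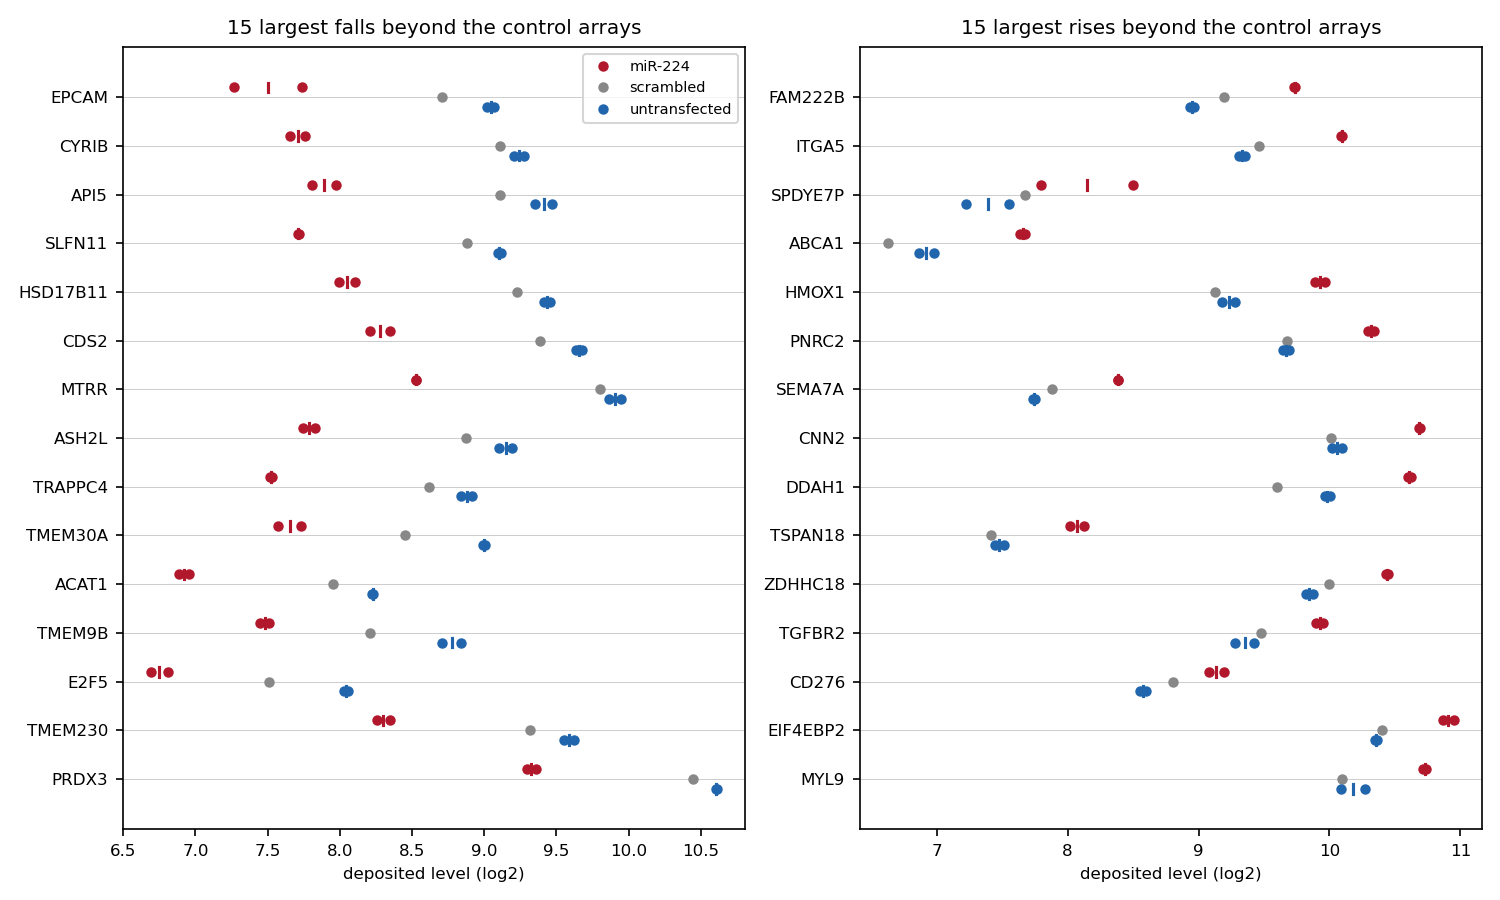
Deposited log2 level (x axis) on each DU145 array for the 15 largest falls (left) and the 15 largest rises (right) that lay beyond all control arrays without the mark. Red points are the 2 miR-224 arrays, grey the scrambled array, blue the 2 untransfected arrays, and short bars are group means. By the choice of genes, the miR-224 arrays of EPCAM, at 7.74 and 7.27, lay left of its 3 control arrays. Those of ABCA1, at 7.64 and 7.68, lay right of its 3.

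The 15 largest rises beyond the control arrays were smaller than the 15 largest falls. They too were chosen by their distance from the scrambled array, so a pass against it is not separate evidence. FAM222B stood at 9.73 and 9.74 with miR-224, 9.19 with the scrambled mimic and 8.93 and 8.97 in untransfected cells and rose by 0.78 ± 0.08 (adjusted p = 0.000696). ITGA5, the alpha chain of the fibronectin receptor, stood at 10.09 and 10.10 with miR-224, 9.46 with the scrambled mimic and 9.31 and 9.36 in untransfected cells and rose by 0.76 ± 0.11 (adjusted p = 0.00329). ABCA1, which exports cholesterol from cells, stood at 7.64 and 7.68 with miR-224, 6.63 with the scrambled mimic and 6.98 and 6.87 in untransfected cells and rose by 0.74 ± 0.10 (adjusted p = 0.00193). The scrambled level of ABCA1 was the lowest of its 5. HMOX1, the inducible heme oxygenase, stood at 9.89 and 9.96 with miR-224, 9.12 with the scrambled mimic and 9.18 and 9.28 in untransfected cells and rose by 0.69 ± 0.10 (adjusted p = 0.00347). DDAH1, which degrades methylated arginines, stood at 10.60 and 10.62 with miR-224, 9.60 with the scrambled mimic and 10.0 and 9.96 in untransfected cells and rose by 0.63 ± 0.08 (adjusted p = 0.00193). Its scrambled array lay below the untransfected arrays, so the gap to the scrambled array was wider still.

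The actin binder CNN2 stood at 10.69 and 10.69 with miR-224, 10.01 with the scrambled mimic and 10.02 and 10.10 in untransfected cells and rose by 0.63 ± 0.10 (adjusted p = 0.00349). MYL9, a regulatory light chain of myosin, stood at 10.71 and 10.74 with miR-224, 10.09 with the scrambled mimic and 10.09 and 10.27 in untransfected cells and rose by 0.55 ± 0.09 (adjusted p = 0.005). The tetraspanin TSPAN18 rose by 0.59 ± 0.09 (adjusted p = 0.00332), and the translational repressor EIF4EBP2 rose by 0.55 ± 0.09 (adjusted p = 0.00383). FAM222B, ABCA1, HMOX1, DDAH1, CNN2, MYL9, TSPAN18 and EIF4EBP2 also passed against the scrambled array (adjusted p between 0.0022 and 0.0457). The other 7 did not (adjusted p between 0.0565 and 0.523), and they held ITGA5, the decay cofactor PNRC2 (rose by 0.65 ± 0.14), the membrane-anchored semaphorin SEMA7A (rose by 0.64 ± 0.13), the palmitoyltransferase ZDHHC18 (rose by 0.59 ± 0.09), the TGF-beta receptor TGFBR2 (rose by 0.57 ± 0.09), the immune checkpoint ligand CD276 (rose by 0.56 ± 0.09) and the pseudogene SPDYE7P. SPDYE7P stood at 8.50 and 7.80 with miR-224, 7.67 with the scrambled mimic and 7.22 and 7.55 in untransfected cells, with its groups nearest to overlap. In 1 fit of all 15 arrays, after quantile normalization and without miR-224 array a or an untransfected array, SPDYE7P did not pass (adjusted p between 0.054 and 0.174). For PNRC2 and SEMA7A the threshold was missed without miR-224 array c or an untransfected array (adjusted p between 0.0547 and 0.0723). TGFBR2 did not pass without untransfected array c (adjusted p = 0.0558). Without untransfected array b, CD276 and MYL9 did not pass (adjusted p between 0.0536 and 0.0735).

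Among marked changes the 6 largest falls were those of 5 protein-coding genes and of SNORD116-21, which is given with the small RNAs. CYP24A1, which inactivates vitamin D, stood at 6.97 and 7.06 with miR-224, 7.40 with the scrambled mimic and 8.31 and 8.24 in untransfected cells and fell by 1.26 ± 0.12 (adjusted p = 0.000524). LIN7C, a scaffold of cell polarity complexes, stood at 7.82 and 7.78 with miR-224, 7.81 with the scrambled mimic and 9.0 and 8.96 in untransfected cells and fell by 1.18 ± 0.12 (adjusted p = 0.00062). Its scrambled level lay between the miR-224 levels, so the change of -1.17 on the scrambled array was as large as that with miR-224. IRAK3, an inhibitor of Toll-like receptor signalling, fell by 1.18 ± 0.10 (adjusted p = 0.000461), with a scrambled change of -0.93. HIPK3, a protein kinase, fell by 1.15 ± 0.11 (adjusted p = 0.000507), with a scrambled change of -0.85. The embigin gene EMB fell by 1.15 ± 0.14 (adjusted p = 0.00169), with a scrambled change of -0.63. None of these 5 passed against the scrambled array (adjusted p between 0.219 and 0.996).

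The largest marked rises included the 1 rise of more than 2-fold, the pseudogene REXO1L1P. REXO1L1P stood at 10.03 and 9.57 with miR-224, 9.57 with the scrambled mimic and 8.79 and 8.75 in untransfected cells and rose by 1.03 ± 0.20 (adjusted p = 0.00815). The kinase MKNK2, which phosphorylates eIF4E, stood at 10.14 and 10.14 with miR-224, 9.75 with the scrambled mimic and 9.36 and 9.29 in untransfected cells and rose by 0.82 ± 0.09 (adjusted p = 0.000952). Its miR-224 levels were above the scrambled level, which was itself above both untransfected levels. The remaining 4 were LOC441081 (rose by 0.78 ± 0.20) and the keratin-associated protein genes KRTAP4-4 (rose by 0.77 ± 0.18), KRTAP5-7 (rose by 0.75 ± 0.11) and KRTAP10-4 (rose by 0.72 ± 0.14). In KRTAP10-4 the scrambled array, at 8.92, was above both miR-224 arrays, at 8.77 and 8.84. REXO1L1P and the KRTAP genes belong to families of near-identical copies whose probes may be shared. For REXO1L1P the threshold was missed in 1 fit of all 15 arrays (adjusted p = 0.0916). LOC441081 did not pass after quantile normalization and without miR-224 array a or an untransfected array (adjusted p between 0.0814 and 0.104). Without miR-224 array a or an untransfected array, KRTAP4-4 did not pass (adjusted p between 0.0695 and 0.0813). For KRTAP10-4 the threshold was missed without untransfected array c or miR-224 array c (adjusted p between 0.054 and 0.0555).

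Small RNA genes were kept apart, since probes on these arrays may read precursors and hosts. The 5 largest rises were in microRNA genes and all carried the mark. MIR326 stood at 8.97 and 9.12 with miR-224, 9.09 with the scrambled mimic and 8.36 and 8.34 in untransfected cells and rose by 0.69 ± 0.17 (adjusted p = 0.0226). MIR320C1 stood at 6.05 and 5.99 with miR-224, 5.77 with the scrambled mimic and 5.38 and 5.38 in untransfected cells and rose by 0.64 ± 0.11 (adjusted p = 0.00567). In MIR326 the scrambled array lay between the miR-224 arrays, and in MIR320C1 it lay between the groups. MIR197 rose by 0.61 ± 0.18, MIR134 rose by 0.59 ± 0.12 and MIR320A rose by 0.53 ± 0.10. The largest falls were in small nucleolar and spliceosomal RNA genes. SNORD116-21 stood at 5.84 and 5.34 with miR-224, 6.11 with the scrambled mimic and 6.69 and 6.85 in untransfected cells and fell by 1.18 ± 0.21 (adjusted p = 0.00655). SNORD58A stood at 6.28 and 5.84 with miR-224, 5.95 with the scrambled mimic and 7.15 and 7.15 in untransfected cells and fell by 1.08 ± 0.22 (adjusted p = 0.0109), with the scrambled array between the miR-224 arrays. SNORA14A stood at 6.58 and 6.68 with miR-224, 8.44 with the scrambled mimic and 8.01 and 7.28 in untransfected cells, and its 2 untransfected arrays differed by more than its miR-224 arrays did. It fell by 1.02 ± 0.31 (adjusted p = 0.0462), RNU5B-1 fell by 1.07 ± 0.21 and RNU4-2 fell by 0.98 ± 0.20. MIR326 did not pass without each of the 4 arrays in turn (adjusted p between 0.0511 and 0.118). After quantile normalization and without each of the 4 arrays in turn, MIR197 did not pass (adjusted p between 0.0676 and 0.177). For MIR134 the threshold was missed without miR-224 array c or an untransfected array (adjusted p between 0.0635 and 0.0783). MIR320A did not pass without an untransfected array (adjusted p between 0.063 and 0.0664). After quantile normalization and without miR-224 array c, SNORD58A did not pass (adjusted p between 0.0563 and 0.0752). For SNORA14A the threshold was missed in 1 fit of all 15 arrays, after quantile normalization, with trend and robust moderation and without untransfected array b or a miR-224 array (adjusted p between 0.121 and 0.246). RNU5B-1 did not pass after quantile normalization and without untransfected array c or miR-224 array c (adjusted p between 0.0512 and 0.0655). In 1 fit of all 15 arrays and without untransfected array b or miR-224 array a, RNU4-2 did not pass (adjusted p between 0.0555 and 0.0856).

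Genes of the host locus stood near the floor of the arrays. GABRE, the host gene, stood at 5.50 and 5.62 with miR-224, 5.47 with the scrambled mimic and 5.33 and 5.39 in untransfected cells, GABRA3 at 5.15 and 5.32 with miR-224, 5.42 with the scrambled mimic and 5.13 and 5.14 in untransfected cells and GABRQ at 5.71 and 5.70 with miR-224, 5.74 with the scrambled mimic and 5.69 and 5.71 in untransfected cells. The changes were 0.20 ± 0.09, 0.10 ± 0.09 and 0.00 ± 0.08, and none of the 3 passed (limma adjusted p between 0.143 and 0.989, none with an unadjusted p under 0.05). Features for MIR224 and MIR452 themselves were not analysed here, so the delivered microRNA was not checked.

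Of 30 genes measured that other work reported as miR-224 targets, 13 fell and 1 rose, 43.3% against the 15.5% of all genes that fell and 28.4% in the level bin of the list's median, with a median change of -0.13. Of the 13 falls 7 lay beyond all control arrays without the mark and 6 carried it. API5, described above, had the smallest p of the list. SMAD4, the shared partner of receptor-regulated SMADs, stood at 8.09 and 8.11 with miR-224, 8.66 with the scrambled mimic and 9.20 and 9.23 in untransfected cells and fell by 1.12 ± 0.09 (adjusted p = 0.000295). PAK2, a kinase activated by RAC and CDC42, stood at 8.86 and 8.82 with miR-224, 9.06 with the scrambled mimic and 9.81 and 9.71 in untransfected cells and fell by 0.93 ± 0.09 (adjusted p = 0.000507). TPD52, a vesicle protein amplified in prostate cancer, stood at 6.99 and 6.92 with miR-224, 7.72 with the scrambled mimic and 7.86 and 7.77 in untransfected cells and fell by 0.86 ± 0.08 (adjusted p = 0.000575). That the groups did not overlap in any of the 3 follows largely from their choice by p. The scrambled array of PAK2 lay nearer to the miR-224 arrays. TPD52 and SMAD4 passed against the scrambled array (adjusted p = 0.008 and 0.0356), and PAK2 did not (adjusted p = 0.414). The 13 falls became 8 without untransfected array b and 9 without miR-224 array a, miR-224 array c or untransfected array c. The 1 rise became 0 without miR-224 array c or an untransfected array. After quantile normalization 10 members fell.

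Of 16 genes of cholesterol synthesis and uptake measured, 8 fell and none rose, and 8 did not pass. That is 50% against 15.5% of all genes and 23.5% in the level bin of the list's median, and all 8 falls lay beyond the 3 control arrays without the mark. The median change was -0.37, against -0.14 for the scrambled array and 0.02 over all genes. HMGCS1, which makes HMG-CoA early in the pathway, stood at 8.50 and 8.46 with miR-224, 9.34 with the scrambled mimic and 9.59 and 9.44 in untransfected cells and fell by 1.03 ± 0.09 (adjusted p = 0.000461). MSMO1, a sterol C4 methyl oxidase, stood at 8.50 and 8.43 with miR-224, 9.36 with the scrambled mimic and 9.33 and 9.38 in untransfected cells and fell by 0.89 ± 0.12 (adjusted p = 0.00223). SREBF2, the transcription factor that switches on the pathway, stood at 8.49 and 8.49 with miR-224, 9.16 with the scrambled mimic and 9.26 and 9.34 in untransfected cells and fell by 0.81 ± 0.09 (adjusted p = 0.000704). In the 3 genes both miR-224 arrays were the lowest and the scrambled array lay with or just below the untransfected arrays. IDI1, an isomerase of the isoprenoid branch, fell by 0.55 ± 0.08 (adjusted p = 0.00354). The remaining 4 falls lay between -0.53 and -0.39. HMGCS1, MSMO1 and SREBF2 passed against the scrambled array as well (adjusted p between 0.00733 and 0.0196). The 8 falls became 5 after quantile normalization, 6 without a miR-224 array and 4 without untransfected array b or c.

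**Figure D3:**
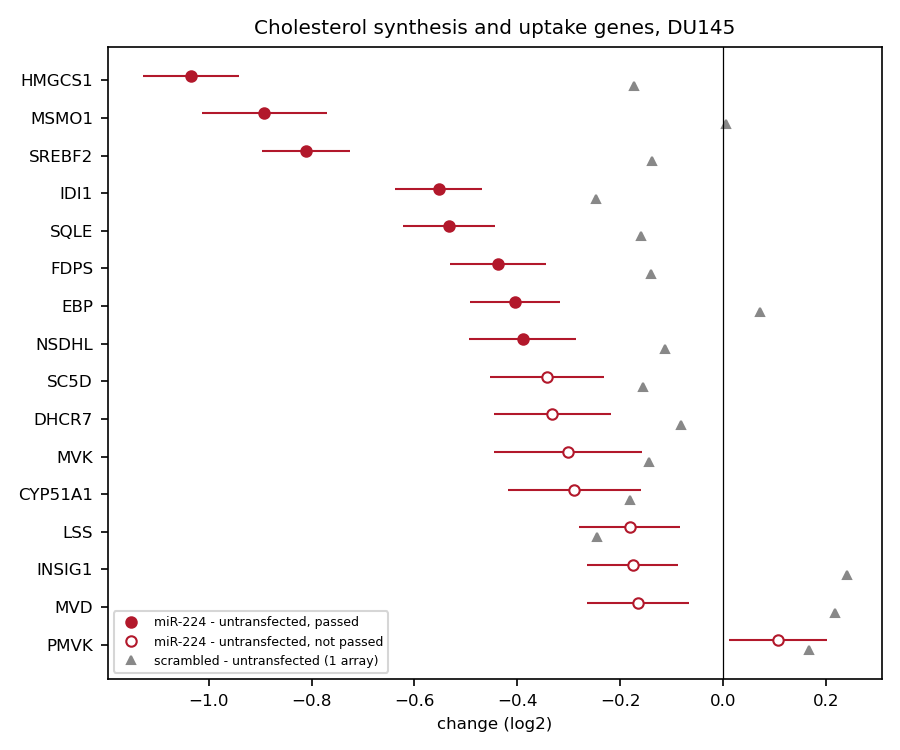
Log2 change (x axis) of the 16 measured genes of cholesterol synthesis and uptake in DU145 cells. Red circles are miR-224 minus untransfected with the standard error from limma, filled where the gene passed, and grey triangles are the scrambled array minus untransfected. The 8 genes that passed run from HMGCS1 at -1.03 to NSDHL at -0.39, and their triangles lie to the right of them.

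The promoter of SREBF2 is shown because its gene fell with the enzymes it controls. A sterol response element, TCACNCCAC, was searched on both strands around the start of each gene (RefSeq, GRCh38.p14). The stretch searched held the 250 bases before the start and a short part after it. Only the 250 bases before the start of SREBF2 are printed, and capitals mark the match. The printed window is chr22:41832855-41833104 on the plus strand, just upstream of the annotated start of the gene. The match lies at chr22:41832972-41832980.
SREBF2 promoter: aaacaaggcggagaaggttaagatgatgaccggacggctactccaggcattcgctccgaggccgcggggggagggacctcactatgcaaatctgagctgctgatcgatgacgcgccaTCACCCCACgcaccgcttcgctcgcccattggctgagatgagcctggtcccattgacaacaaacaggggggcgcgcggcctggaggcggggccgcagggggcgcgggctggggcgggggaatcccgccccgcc
The element was found in 1 of the 15 genes of the list with a promoter entry, in 38 of 2335 genes that fell (1.63%) and in 215 of all 14210 measured genes with an entry (1.51%).

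Of 12 genes of fatty acid synthesis measured, 6 fell and none rose, 50% against 15.5% of all genes and 23.5% in its level bin, 4 of the 6 with the mark, and the median change was -0.27 against -0.31 on the scrambled array. ACLY, which makes cytosolic acetyl-CoA from citrate, stood at 9.05 and 8.97 with miR-224, 9.59 with the scrambled mimic and 10.02 and 10.07 in untransfected cells and fell by 1.03 ± 0.13 (adjusted p = 0.00177). ACSS2, which makes it from acetate, fell by 0.61 ± 0.09 (adjusted p = 0.00308) and its scrambled change was -0.32. The scrambled array lay between the groups in both genes. The 6 falls became 2 without untransfected array b and 3 without miR-224 array a, miR-224 array c or untransfected array c. In the list of cholesterol efflux genes, 1 of 10 rose (10%), the exporter ABCA1 described above, and 1 fell (10%). In the level bin of that list 7.46% of genes rose and 17% fell. The 1 fall became 0 without miR-224 array c or an untransfected array.

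Of 40 genes of DNA replication and the G1/S transition measured, 18 fell and none rose, 45% against 15.5% of all genes and 23.5% in the list's level bin. The mark fell on 10 of the 18, and the median change was -0.29 against -0.17 on the scrambled array. RRM2, a subunit of ribonucleotide reductase, stood at 8.56 and 8.50 with miR-224, 9.39 with the scrambled mimic and 9.44 and 9.50 in untransfected cells and fell by 0.94 ± 0.08 (adjusted p = 0.000461). MCM2, a subunit of the replicative helicase, stood at 8.14 and 8.09 with miR-224, 8.77 with the scrambled mimic and 8.70 and 8.79 in untransfected cells and fell by 0.63 ± 0.08 (adjusted p = 0.00217). For these 2 genes the scrambled array lay among or beside the untransfected arrays, and both passed against it (adjusted p = 0.00448 and 0.016). MCM10, which loads onto replication origins, fell by 0.64 ± 0.09 (adjusted p = 0.00235), and the atypical repressor E2F8 fell by 0.64 ± 0.09 (adjusted p = 0.00308). The 18 falls became 6 without untransfected array c, 7 without untransfected array b, 8 without miR-224 array c and 12 without miR-224 array a. Quantile normalization left 13 falls and 1 rise.

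Of 37 mitosis genes measured, 8 fell and none rose. Their share of 21.6% compares with 15.5% of all genes and 23.5% in the bin of their median level, and 7 of the 8 carried the mark. The list's median was -0.20 with miR-224 and -0.38 on the scrambled array. KIF23, a motor of the central spindle, stood at 9.87 and 9.92 with miR-224, 10.25 with the scrambled mimic and 10.54 and 10.43 in untransfected cells and fell by 0.59 ± 0.09 (adjusted p = 0.00303), without the mark. The spindle checkpoint gene MAD2L1 fell by 0.63 ± 0.10 (adjusted p = 0.00368), with a scrambled change of -0.42. The 8 falls became 2 without miR-224 array c or an untransfected array and 6 without miR-224 array a. Genes of one-carbon metabolism and the methionine cycle fell in 8 of 18 cases, 44.4% against 15.5% of all genes and 23.5% in the level bin, with no rise and 5 of the 8 marked. The list's median was -0.26 with miR-224 and -0.27 on the scrambled array. MTRR led them. TYMS, which makes thymidylate, stood at 9.90 and 9.88 with miR-224, 10.21 with the scrambled mimic and 10.39 and 10.44 in untransfected cells and fell by 0.53 ± 0.08 (adjusted p = 0.00412). The 8 falls became 1 without untransfected array c, 2 without miR-224 array c, 3 without untransfected array b and 4 without miR-224 array a. For TYMS the threshold was missed without untransfected array c (adjusted p = 0.0554).

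Targets of p53 and regulators of apoptosis were mixed. Of 18 p53 targets, 4 fell (22.2%, against 17% in the level bin) and 2 rose. Of 24 apoptosis regulators, 7 fell (29.2%, against 28.4% in the level bin) and 1 rose. Of all genes 15.5% fell. The death receptor gene TNFRSF10B stood at 9.55 and 9.53 with miR-224, 8.88 with the scrambled mimic and 9.05 and 9.04 in untransfected cells and rose by 0.50 ± 0.09 (adjusted p = 0.00613), above all 3 control arrays. RRM2B, the p53-inducible ribonucleotide reductase subunit, stood at 7.53 and 7.45 with miR-224, 7.50 with the scrambled mimic and 8.10 and 8.04 in untransfected cells and fell by 0.58 ± 0.09 (adjusted p = 0.00411), with the scrambled array at the level of miR-224. MCL1, a survival protein of the BCL2 family, fell by 0.49 ± 0.10 (adjusted p = 0.0093). Of the p53 targets, the 4 falls became 0 without untransfected array b, 1 without untransfected array c and 2 without a miR-224 array, and the 2 rises became 0 without an untransfected array and 1 without a miR-224 array. Of the apoptosis regulators, the 7 falls became 1 without miR-224 array c or an untransfected array and 4 without miR-224 array a, and the 1 rise became 0 without miR-224 array c or an untransfected array and 2 without miR-224 array a. TNFRSF10B did not pass without an untransfected array (adjusted p between 0.0626 and 0.0646). Without untransfected array b, RRM2B did not pass (adjusted p = 0.0528). For MCL1 the threshold was missed without miR-224 array c or an untransfected array (adjusted p between 0.0606 and 0.0947).

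Of 34 interferon response genes measured, 16 fell and 1 rose, 47.1% against 15.5% of all genes and 17% in the level bin of the list's median. The list's median was -0.19 with miR-224 and -0.04 on the scrambled array. The mark fell on 12 of the 16 falls, against 70.35% of all falls. IFIT1, an interferon-induced protein that binds foreign RNA, stood at 6.82 and 6.94 with miR-224, 6.91 with the scrambled mimic and 7.90 and 8.0 in untransfected cells and fell by 1.07 ± 0.10 (adjusted p = 0.000465). Its relative IFIT3 stood at 6.40 and 6.34 with miR-224, 6.56 with the scrambled mimic and 7.43 and 7.24 in untransfected cells and fell by 0.97 ± 0.10 (adjusted p = 0.000575). IFIT2 of the same family fell by 0.85 ± 0.09 (adjusted p = 0.000683), with a scrambled change of -0.74. In IFIT1 the scrambled array lay between the miR-224 arrays, and in IFIT2 and IFIT3 just above them. SAMD9, an antiviral restriction factor, stood at 6.72 and 6.57 with miR-224, 6.64 with the scrambled mimic and 7.68 and 7.69 in untransfected cells and fell by 1.04 ± 0.11 (adjusted p = 0.000699), with the scrambled array again between the miR-224 arrays. None of the 4 passed against the scrambled array (adjusted p between 0.578 and 0.999). The 16 falls became 5 without untransfected array b, 7 without untransfected array c, 8 without miR-224 array c and 10 without miR-224 array a, and the 1 rise became 0 without any 1 of the 4 arrays.

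Of 23 genes of NF-kB and inflammatory cytokines, 4 fell and 1 rose. The share of falls, 17.4%, compares with 15.5% of all genes and 17% in the level bin. NFKB1, a subunit of the factor, stood at 8.23 and 8.26 with miR-224, 8.42 with the scrambled mimic and 8.93 and 8.83 in untransfected cells and fell by 0.64 ± 0.12 (adjusted p = 0.00844). Its feedback inhibitor TNFAIP3 fell by 0.55 ± 0.11 (adjusted p = 0.0104). The miR-224 arrays of NFKB1 lay below all control arrays, and the scrambled change was -0.46. The 4 falls became 0 without untransfected array b, 1 without untransfected array c and 2 without a miR-224 array, and the 1 rise became 0 without any 1 of the 4 arrays. Of 14 genes of MHC class I presentation, 1 fell (7.14%, against 28.4% in the level bin) and none rose. The 1 fall became 0 without miR-224 array c or untransfected array b. NFKB1 did not pass without untransfected array b (adjusted p = 0.0688). Without miR-224 array a or an untransfected array, TNFAIP3 did not pass (adjusted p between 0.0503 and 0.0921).

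Of 27 epithelial junction and keratin genes measured, 7 fell, none rose and 20 did not pass. The share of 25.9% compares with 15.5% of all genes and 23.5% in the list's level bin. Of the 7 falls, 6 lay beyond all control arrays without the mark. Besides EPCAM the falls included DSG2, a desmosomal cadherin, which stood at 9.85 and 9.66 with miR-224, 10.20 with the scrambled mimic and 10.43 and 10.40 in untransfected cells and fell by 0.66 ± 0.10 (adjusted p = 0.00377). CLDN7, a tight junction claudin, stood at 7.27 and 7.41 with miR-224, 7.75 with the scrambled mimic and 8.02 and 7.92 in untransfected cells and fell by 0.63 ± 0.10 (adjusted p = 0.004). Of the simple epithelial keratins, KRT8 fell by 0.41 ± 0.08 (adjusted p = 0.00931), KRT18 fell by 0.33 ± 0.09 (adjusted p = 0.0331) and KRT7 fell by 0.49 ± 0.10 (adjusted p = 0.00984). The scrambled array stood above both untransfected arrays for KRT8 and KRT18 and between the groups for KRT7. KRT19, the other keratin among the 6 epithelial identity genes, changed by -0.18 ± 0.09 and did not pass (limma adjusted p = 0.176). In the list of those 6 genes 66.7% fell, against 15.5% of all genes and 23.5% in its level bin. CDH1, which encodes E-cadherin, stood at 8.80 and 8.76 with miR-224, 8.44 with the scrambled mimic and 8.93 and 8.93 in untransfected cells, and did not pass (adjusted p = 0.289). The 7 falls became 3 without miR-224 array c or an untransfected array and 4 without miR-224 array a. Of the 6 epithelial identity genes 4 fell, and the 4 falls became 1 without miR-224 array c or an untransfected array and 2 without miR-224 array a. For KRT8 the threshold was missed without each of the 4 arrays in turn (adjusted p between 0.0519 and 0.103). KRT18 did not pass after quantile normalization and without each of the 4 arrays in turn (adjusted p between 0.08 and 0.248). Without miR-224 array c or an untransfected array, KRT7 did not pass (adjusted p between 0.0616 and 0.0821).

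Mesenchymal markers held 3 rises (20%), all with the mark, and 2 falls (13.3%) among 15 genes. Of all rises 86.6% carried the mark. In the level bin of the list 7.46% of genes rose and 17% fell. SNAI2, a repressor of epithelial genes also called Slug, stood at 7.30 and 6.97 with miR-224, 7.80 with the scrambled mimic and 7.76 and 7.85 in untransfected cells and fell by 0.67 ± 0.11 (adjusted p = 0.00526). It passed against the scrambled array too (adjusted p = 0.0454), and its miR-224 arrays were the lowest. The 2 falls became 1 without any 1 of the 4 arrays, and the 3 rises became 0 without miR-224 array c or an untransfected array and 1 without miR-224 array a. Among 34 collagens, laminins and integrins, 5 fell (14.7%) and 2 rose (5.88%), against 17% and 7.46% in the level bin. ITGA3, the alpha chain of a laminin receptor, stood at 10.31 and 10.40 with miR-224, 10.96 with the scrambled mimic and 11.07 and 11.06 in untransfected cells and fell by 0.71 ± 0.09 (adjusted p = 0.00208), while ITGA5 rose as described. Both integrins had the scrambled array beside the untransfected arrays. The 5 falls became 1 without an untransfected array and 2 without a miR-224 array, and the 2 rises became 1 without any 1 of the 4 arrays. Of 29 matrix proteases and inhibitors, 6 fell (20.7%, against 17% in the level bin) and none rose. The sheddase ADAM10 stood at 9.43 and 9.25 with miR-224, 10.11 with the scrambled mimic and 10.46 and 10.45 in untransfected cells and fell by 1.12 ± 0.09 (adjusted p = 0.000296). Its relative ADAM17 fell by 0.61 ± 0.10 (adjusted p = 0.00393), and the collagenase MMP1 fell by 0.57 ± 0.08 (adjusted p = 0.00326). ADAM10 passed against the scrambled array (adjusted p = 0.0105). The 6 falls became 3 without an untransfected array, 4 without miR-224 array c and 5 without miR-224 array a.

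In the TGF-beta and SMAD pathway 6 of 31 genes fell (19.4%) and 3 rose, near the 15.5% of all genes that fell and the 23.5% in the list's level bin. SMAD5, a SMAD of the bone morphogenetic protein branch, stood at 8.08 and 7.97 with miR-224, 8.57 with the scrambled mimic and 9.05 and 9.16 in untransfected cells and fell by 1.08 ± 0.09 (adjusted p = 0.000349). ID1, a target of that branch and an inhibitor of differentiation, stood at 9.14 and 9.23 with miR-224, 9.76 with the scrambled mimic and 9.88 and 9.86 in untransfected cells and fell by 0.68 ± 0.09 (adjusted p = 0.00205). ID3, its relative, stood at 7.84 and 7.90 with miR-224, 8.61 with the scrambled mimic and 8.54 and 8.49 in untransfected cells and fell by 0.65 ± 0.09 (adjusted p = 0.00275). The groups did not overlap in the 3 genes, nor in SMAD4 above, and all 4 passed against the scrambled array (adjusted p between 0.015 and 0.0416). That their groups did not overlap follows largely from the choice of these 4 genes by p. The receptor TGFBR2 was among the 3 rises, all of which lay beyond the control arrays without the mark. The 3 rises became 0 without untransfected array c and 1 without miR-224 array a, miR-224 array c or untransfected array b.

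The ERK, AKT and Wnt lists held shares of falls between 15.4% and 18.8%, against 15.5% of all genes. In their level bins 23.5% (ERK) and 28.4% (AKT and Wnt) of genes fell. Of 26 ERK pathway and feedback genes 4 fell (15.4%) and 1 rose. DUSP6, a phosphatase that switches off ERK, stood at 6.52 and 6.70 with miR-224, 7.27 with the scrambled mimic and 7.18 and 7.24 in untransfected cells and fell by 0.60 ± 0.11 (adjusted p = 0.00587), with the scrambled array above the untransfected arrays. EGR1, an immediate early factor downstream of ERK, stood at 9.18 and 9.25 with miR-224, 9.40 with the scrambled mimic and 9.77 and 9.89 in untransfected cells and fell by 0.62 ± 0.09 (adjusted p = 0.00277), with a scrambled change of -0.43. The 4 falls became 1 without untransfected array c and 2 without miR-224 array a, miR-224 array c or untransfected array b, and the 1 rise became 0 without any 1 of the 4 arrays. Of 31 AKT and mTORC1 pathway genes 5 fell and none rose. The 5 falls became 0 without untransfected array b and 2 without miR-224 array a, miR-224 array c or untransfected array c. Of 32 Wnt genes 6 fell and 1 rose. DKK1, a secreted Wnt inhibitor, stood at 10.10 and 10.03 with miR-224, 10.66 with the scrambled mimic and 10.72 and 10.75 in untransfected cells and fell by 0.67 ± 0.09 (adjusted p = 0.0022). The kinase GSK3B fell by 0.66 ± 0.12 (adjusted p = 0.00695). The 6 falls became 1 without untransfected array b, 2 without miR-224 array c or untransfected array c and 3 without miR-224 array a, and the 1 rise became 0 without miR-224 array c or an untransfected array and 2 without miR-224 array a. For DUSP6 the threshold was missed without untransfected array c (adjusted p = 0.0536). GSK3B did not pass without untransfected array b (adjusted p = 0.0555).

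Targets of YAP and TEAD fell in 9 of 29 cases, and 1 rose. The share of falls, 31%, compares with 15.5% of all genes and 23.5% in the list's level bin. ANKRD1, a nuclear ankyrin repeat protein, stood at 7.79 and 7.75 with miR-224, 8.29 with the scrambled mimic and 8.52 and 8.53 in untransfected cells and fell by 0.75 ± 0.10 (adjusted p = 0.00204). F3, which encodes tissue factor, fell by 0.62 ± 0.08 (adjusted p = 0.00236), with a scrambled change of -0.35. The list's median was -0.05, against -0.23 on the scrambled array. The 9 falls became 2 without miR-224 array c or an untransfected array and 3 without miR-224 array a, and the 1 rise became 0 without any 1 of the 4 arrays. In the list of AXL, its relatives and its ligands 20% of genes fell, against 28.4% in the level bin. AXL, a receptor tyrosine kinase, stood at 11.97 and 11.90 with miR-224, 10.56 with the scrambled mimic and 11.78 and 11.77 in untransfected cells. Its scrambled array was the lowest by more than 1 log2 unit. AXL did not pass against untransfected cells (0.16 ± 0.08, limma adjusted p = 0.176), although it passed against the scrambled array (adjusted p = 0.00208). Of the 5 genes of AXL, its relatives and its ligands 1 fell, and the 1 fall became 0 without miR-224 array c or an untransfected array.

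Of 30 ER to Golgi coat and ARF genes, 6 fell and none rose, and 2 of the 6 carried the mark. TMED10, a cargo receptor between these compartments, stood at 10.14 and 10.08 with miR-224, 11.21 with the scrambled mimic and 11.20 and 11.10 in untransfected cells and fell by 1.04 ± 0.09 (adjusted p = 0.000306). KDELR3, which returns resident proteins to the endoplasmic reticulum, stood at 8.87 and 8.75 with miR-224, 9.78 with the scrambled mimic and 9.79 and 9.76 in untransfected cells and fell by 0.96 ± 0.11 (adjusted p = 0.000855). COPG1, a coatomer subunit, stood at 8.39 and 8.40 with miR-224, 9.09 with the scrambled mimic and 9.13 and 9.22 in untransfected cells and fell by 0.78 ± 0.10 (adjusted p = 0.00193). In all 3 the scrambled array lay with the untransfected arrays, and all passed against it (adjusted p = 0.0022, 0.00751 and 0.0251). The 6 falls became 3 without miR-224 array c or an untransfected array and 4 without miR-224 array a. The share of falls, 20%, was near the 15.5% of all genes and the 23.5% in the list's level bin.

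Of 25 clathrin and adaptor genes, 5 fell (20%) and 2 rose (8%), against 23.5% and 2.2% in the level bin. AP2M1, the cargo-binding chain of the plasma membrane adaptor, stood at 9.55 and 9.60 with miR-224, 10.45 with the scrambled mimic and 10.33 and 10.39 in untransfected cells and fell by 0.79 ± 0.08 (adjusted p = 0.000751). CLTB, a clathrin light chain, stood at 8.02 and 7.90 with miR-224, 9.12 with the scrambled mimic and 8.74 and 8.62 in untransfected cells and fell by 0.72 ± 0.09 (adjusted p = 0.00184). The dynamin DNM1 fell by 0.69 ± 0.11 (adjusted p = 0.00467). For AP2M1 and CLTB the scrambled array was above the mean of the untransfected arrays. The 5 falls became 3 without miR-224 array c or an untransfected array and 4 without miR-224 array a. The 2 rises became 0 without any 1 of the 4 arrays. Of 38 RAB GTPases 9 fell (23.7%, against 23.5% in the level bin), 6 with the mark, and none rose. RAB38, a RAB of lysosome-related organelles, stood at 7.53 and 7.60 with miR-224, 8.32 with the scrambled mimic and 8.45 and 8.40 in untransfected cells and fell by 0.85 ± 0.08 (adjusted p = 0.000575). RAB27B, which acts in secretion, fell by 0.67 ± 0.11 (adjusted p = 0.00411). The 9 falls became 2 without untransfected array c and 3 without miR-224 array a, miR-224 array c or untransfected array b.

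Mitochondrial ribosomal protein genes fell in 15 of 49 cases, and none rose. The share of falls, 30.6%, compares with 15.5% of all genes and 23.5% in the list's level bin. The mark fell on 11 of the 15, against 70.35% of all falls. MRPL45 stood at 10.23 and 10.22 with miR-224, 10.87 with the scrambled mimic and 11.04 and 11.02 in untransfected cells and fell by 0.80 ± 0.08 (adjusted p = 0.00066). MRPS16 stood at 8.67 and 8.66 with miR-224, 9.23 with the scrambled mimic and 9.43 and 9.38 in untransfected cells and fell by 0.74 ± 0.09 (adjusted p = 0.00177). MRPL1 fell by 0.69 ± 0.09 (adjusted p = 0.0018) with a scrambled change of -0.38, and MRPL35 fell by 0.81 ± 0.11 (adjusted p = 0.00217) with a scrambled change of -0.61. The first 2 passed against the scrambled array (adjusted p = 0.0151 and 0.0429) and the other two did not. The 15 falls became 4 without miR-224 array c or an untransfected array and 9 without miR-224 array a. The falls were 7 and the rises 2 after quantile normalization.

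Respiratory chain genes fell less often than all genes. In complex I 3 of 34 genes fell (8.82%) and 1 rose (2.94%). In complexes III to V 3 of 31 fell (9.68%) and 1 rose (3.23%). Of all genes 15.5% fell and 5.44% rose, and 23.5% fell in the level bin of both lists. NDUFA8, a subunit of complex I, was the exception in size. It stood at 7.34 and 7.25 with miR-224, 8.72 with the scrambled mimic and 8.61 and 8.51 in untransfected cells and fell by 1.27 ± 0.11 (adjusted p = 0.000461), with the scrambled array above both untransfected arrays. NDUFA5 fell by 0.56 ± 0.11 (adjusted p = 0.00805), with a scrambled change of -0.49. In complex I the 3 falls became 1 without untransfected array c and 2 without miR-224 array a, miR-224 array c or untransfected array b. The 1 rise became 0 without any 1 of the 4 arrays. In complexes III to V the 3 falls became 0 without miR-224 array c or an untransfected array and 2 without miR-224 array a. The 1 rise there became 0 without any 1 of the 4 arrays. Of 36 cytosolic ribosomal protein genes 1 fell, RPS16 (2.78%, against 23.5% in the level bin). RPS16 stood at 10.05 and 9.97 with miR-224, 10.96 with the scrambled mimic and 10.53 and 10.60 in untransfected cells. It fell by 0.56 ± 0.08 (adjusted p = 0.00359). Without untransfected array c, NDUFA5 and RPS16 did not pass (adjusted p between 0.0503 and 0.0886). RPS16 has processed copies elsewhere in the genome that its probes may also read.

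In 3 lists of RNA and translation machinery 17.6% to 26.1% of genes fell, against 15.5% of all genes and 23.5% or 28.4% in the bins of their median levels. Of 34 translation initiation factors 6 fell and 1 rose, and EIF3E, a subunit of eIF3, stood at 8.42 and 8.14 with miR-224, 8.86 with the scrambled mimic and 9.27 and 9.27 in untransfected cells and fell by 0.99 ± 0.14 (adjusted p = 0.00283). The rise was that of EIF4EBP2. The 6 falls became 1 without any 1 of the 4 arrays. Of 35 spliceosomal proteins 7 fell and 1 rose, and SF3A3, a U2 component, stood at 9.49 and 9.34 with miR-224, 9.82 with the scrambled mimic and 10.14 and 10.08 in untransfected cells and fell by 0.70 ± 0.10 (adjusted p = 0.00303). LSM6, a ring protein of U6 and of decapping, fell by 0.64 ± 0.11 (adjusted p = 0.00613). The 7 falls became 2 without miR-224 array c or an untransfected array and 3 without miR-224 array a, and the 1 rise became 0 without any 1 of the 4 arrays. MicroRNA machinery held 6 falls and 1 rise among 23 genes. DICER1, which cuts microRNA precursors, stood at 10.25 and 10.16 with miR-224, 9.52 with the scrambled mimic and 9.77 and 9.65 in untransfected cells and rose by 0.49 ± 0.09 (adjusted p = 0.00712), above all control arrays. PAN2, a deadenylase, fell by 0.62 ± 0.09 (adjusted p = 0.00293), and XPO5, the exporter of precursors, fell by 0.56 ± 0.10 (adjusted p = 0.00647). The 6 falls became 1 without untransfected array c, 2 without untransfected array b and 3 without a miR-224 array. For DICER1 and XPO5 the threshold was missed without untransfected array c (adjusted p between 0.0671 and 0.0914).

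Among 18 genes of DNA methylation and polycomb, 3 fell (16.7%) and 2 rose (11.1%), against 28.4% and 4.11% in the level bin. MBD2, which binds methylated DNA, stood at 8.56 and 8.36 with miR-224, 9.07 with the scrambled mimic and 9.11 and 9.15 in untransfected cells and fell by 0.67 ± 0.10 (adjusted p = 0.00362), below all control arrays. The 3 falls became 1 without any 1 of the 4 arrays, and the 2 rises became 0 without any 1 of the 4 arrays. Of 45 replication-dependent histone genes 5 fell (11.1%) and 2 rose (4.44%), against 28.4% and 4.11% in the level bin. H4C13 stood at 8.09 and 7.96 with miR-224, 8.80 with the scrambled mimic and 8.87 and 8.97 in untransfected cells and fell by 0.90 ± 0.10 (adjusted p = 0.000786). H3C11 stood at 10.15 and 10.04 with miR-224, 10.78 with the scrambled mimic and 10.89 and 10.90 in untransfected cells and fell by 0.80 ± 0.10 (adjusted p = 0.00151). Both had the scrambled array with the untransfected arrays. Histone genes are near-identical copies, so single members are uncertain. The 5 falls became 2 without miR-224 array c or an untransfected array and 4 without miR-224 array a. The 2 rises became 0 without any 1 of the 4 arrays.

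In hypoxia and glycolysis 5 of 31 genes fell (16.1%, against 23.5% in the level bin) and none rose. PDK1, which inhibits pyruvate dehydrogenase, stood at 8.09 and 8.05 with miR-224, 8.62 with the scrambled mimic and 8.96 and 8.90 in untransfected cells and fell by 0.86 ± 0.09 (adjusted p = 0.000673). The glycolytic regulator PFKFB3 stood at 8.48 and 8.46 with miR-224, 9.07 with the scrambled mimic and 9.13 and 9.13 in untransfected cells and fell by 0.66 ± 0.09 (adjusted p = 0.00287). That the groups did not overlap in either gene follows largely from their choice by p. The 5 falls became 2 without any 1 of the 4 arrays. Few genes passed in the ATF4 and unfolded protein response list (2 falls of 31) and the proteasome list (3 falls of 28). The immediate early and heat shock list held 3 falls and 1 rise of 26. The antioxidant list held 1 fall and 1 rise, that of HMOX1, of 24. None of these shares of falls reached the 15.5% of all genes or the 23.5% in the level bin of these lists. Among markers of other cells, STEAP2, a metalloreductase of prostate epithelium, stood at 7.54 and 7.57 with miR-224, 8.10 with the scrambled mimic and 8.45 and 8.27 in untransfected cells and fell by 0.80 ± 0.09 (adjusted p = 0.00111). It was 1 of 2 falls (20%) among 10 androgen-regulated and luminal genes, where 1 rose (10%). In the level bin of that list 6.86% of genes fell and 10% rose. The neuroendocrine list gave 1 fall (12.5%) and 2 rises (25%) of 8, the endothelial list 1 rise of 10 (10%) and the leukocyte list none of 10. In the level bin of those lists 1.8% of genes fell and 3.4% rose. The fibroblast list gave 1 rise of 12 (8.33%), against 10% in its level bin. The mean level of the 10 leukocyte markers was 6.22 and 6.27 with miR-224, 6.28 with the scrambled mimic and 6.10 and 6.09 in untransfected cells, and the part of other cells in any result was not tested.

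**Figure D4:**
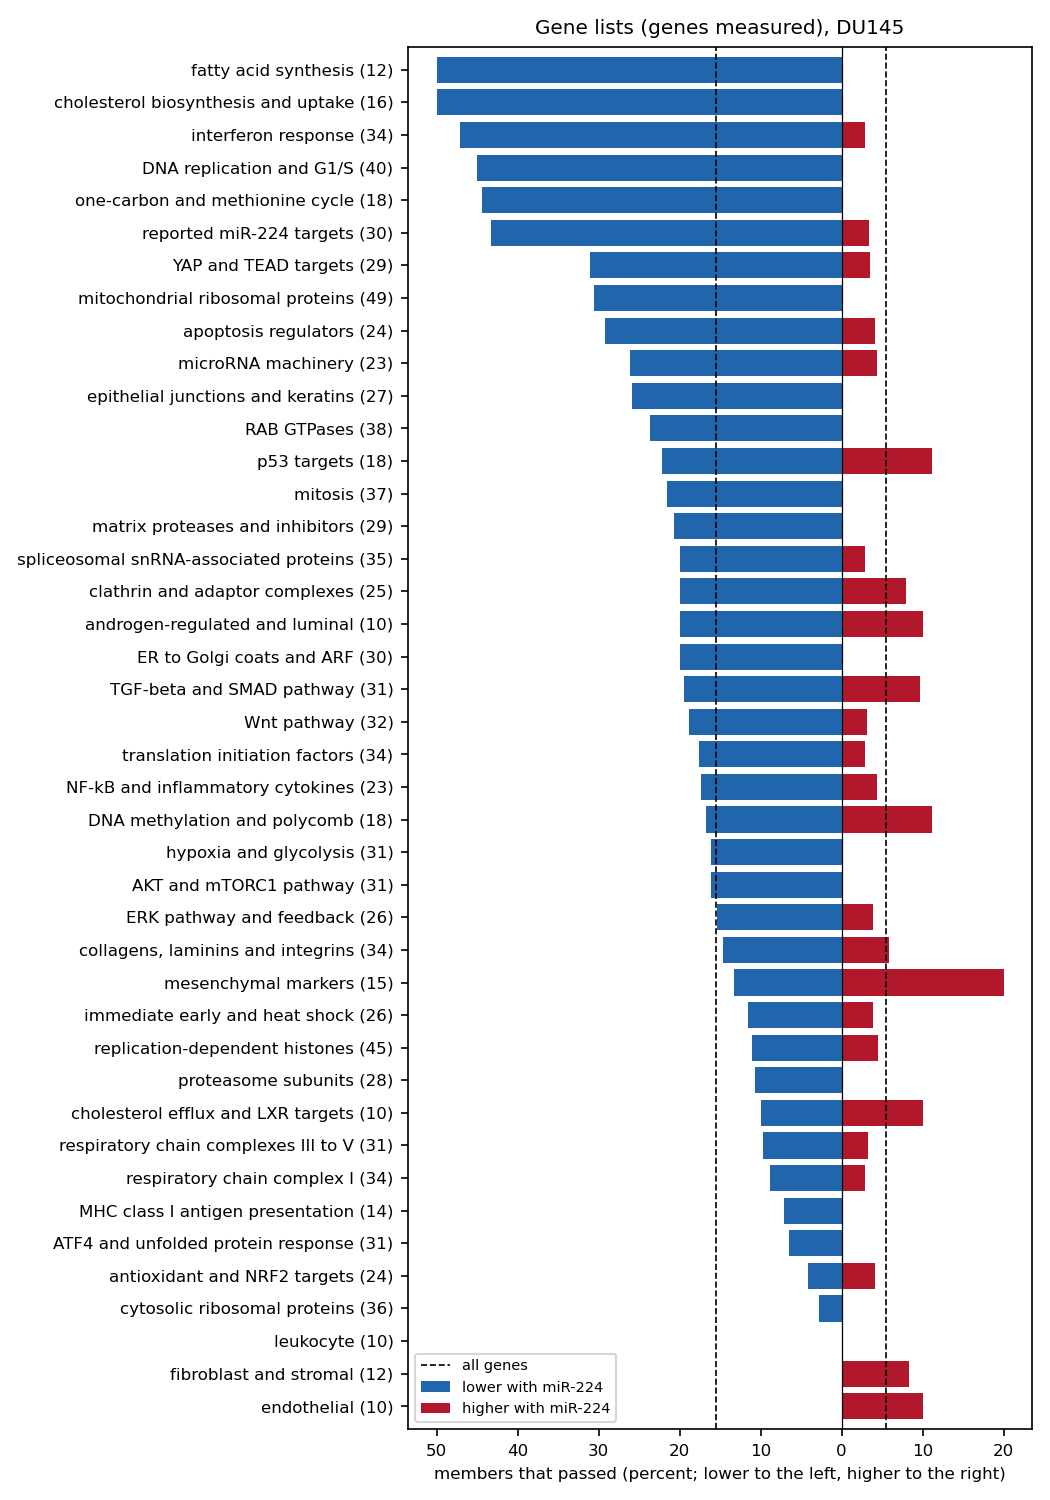
Share of each gene list (percent, x axis) that was lower (blue, to the left) or higher (red, to the right) with miR-224 than in untransfected DU145 cells, for the lists reported here with at least 10 measured genes, whose number stands in brackets. Dashed lines mark the 15.5% and 5.44% of all genes, and the cholesterol and fatty acid lists reach 50% to the left.

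The miR-452 arrays, which were transfected like the miR-224 arrays, show which changes differed between the 2 mimics. The miR-224 level was above the miR-452 level for 649 genes (3.53%) and below it for 437 (2.38%). Both comparisons with the untransfected arrays share those arrays, and only the direct difference is given. Of the 2850 genes that fell against untransfected cells 386 were also lower than with miR-452, and of the 1000 that rose 61 were also higher. Both comparisons use the same 2 miR-224 arrays, so a chance value on those arrays can give both calls. The 2 calls on a gene are therefore not separate evidence. MTRR stood at 8.53 and 8.53 with miR-224 and 9.94 and 10.05 with miR-452 (difference -1.47 ± 0.09, adjusted p = 0.000222). ANKRD1 stood at 7.79 and 7.75 with miR-224 and 9.28 and 9.53 with miR-452 (difference -1.64 ± 0.10, adjusted p = 0.000222). API5 stood at 7.97 and 7.81 with miR-224 and 9.31 and 9.49 with miR-452 (difference -1.51 ± 0.10, adjusted p = 0.000222). In all 3, which were chosen by p for this difference, the miR-452 arrays were the higher pair, without overlap. PRDX3 (-1.14 ± 0.08, adjusted p = 0.000362), C1orf116 (-1.10 ± 0.09, adjusted p = 0.000436) and the coronin CORO1C (-1.15 ± 0.09, adjusted p = 0.000436) were lower with miR-224 as well. CORO1C stood at 10.27 and 10.17 with miR-224, 11.19 with the scrambled mimic and 11.26 and 11.34 in untransfected cells, and C1orf116 at 7.56 and 7.56 with miR-224, 8.47 with the scrambled mimic and 8.65 and 8.59 in untransfected cells.

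Genes that passed against untransfected cells and were higher with miR-224 than with miR-452 included some that had fallen. TMEM184C stood at 8.48 and 8.33 with miR-224 and 7.19 and 7.36 with miR-452 (difference 1.13 ± 0.10, adjusted p = 0.000497), while its level of 8.75 and 8.72 in untransfected cells was above both mimics. C12orf75 (0.93 ± 0.10, adjusted p = 0.00109) was likewise below untransfected cells with miR-224. The heparan sulfate proteoglycan gene SDC3 stood at 8.57 and 8.71 with miR-224 and 7.54 and 7.70 with miR-452 (difference 1.02 ± 0.10, adjusted p = 0.000815). The others were the mitochondrial adenylate kinase AK4 (0.91 ± 0.09, adjusted p = 0.00087), the stress-induced sestrin SESN3 (0.85 ± 0.09, adjusted p = 0.00104) and TSPAN18 (0.84 ± 0.09, adjusted p = 0.0011). These 12 differences held under each alternative tried for them. Against untransfected cells, SDC3 rose by 0.45 ± 0.10, AK4 rose by 0.30 ± 0.09 and SESN3 rose by 0.33 ± 0.09, whereas TMEM184C fell by 0.33 ± 0.10 and C12orf75 fell by 0.33 ± 0.10. SDC3 did not pass without miR-224 array c or an untransfected array (adjusted p between 0.0691 and 0.135). Without each of the 4 arrays in turn, AK4 and SESN3 did not pass (adjusted p between 0.0638 and 0.245). For TMEM184C and C12orf75 the threshold was missed after quantile normalization and without each of the 4 arrays in turn (adjusted p between 0.0627 and 0.315). The 1086 differences between mimics became 612 without untransfected array b or c, 324 without miR-224 array a, 254 without miR-224 array c and 2152 without miR-452 array c.

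PC3, a prostate cancer line from a bone metastasis, had the same comparison on 2 miR-224 and 2 untransfected arrays, and the lines were normalized apart. The change differed between the lines for 942 genes, 5.13% of all, higher in DU145 for 146 (0.794%) and lower for 796 (4.33%), by limma on all 15 arrays. In PC3 itself 6.82% of genes fell and 2.77% rose. Of the 2850 falls in DU145, 701 also passed as falls and 50 as rises in PC3, and of the 1000 rises 48 passed as rises and 5 as falls. TCP11L2 moved in opposite directions, with changes of -0.89 ± 0.12 in DU145 and 0.77 ± 0.10 in PC3 (difference -1.67 ± 0.15, adjusted p = 7.02e-05). CYP24A1 changed by -1.26 ± 0.12 in DU145 and 0.02 ± 0.10 in PC3 (difference -1.28 ± 0.14, adjusted p = 0.000738). IRAK3 changed by -1.18 ± 0.10 in DU145 and 0.01 ± 0.09 in PC3 (difference -1.18 ± 0.13, adjusted p = 0.000738). Both of these, which carried the mark in DU145, were near 0 in PC3. The phosphatase subunit gene PPP2R2C changed by -0.86 ± 0.09 in DU145 and 0.02 ± 0.08 in PC3 (difference -0.88 ± 0.11, adjusted p = 0.00188). STRIP2, a member of phosphatase-associated scaffolds, changed by -0.93 ± 0.09 in DU145 and 0.11 ± 0.08 in PC3 (difference -1.03 ± 0.12, adjusted p = 0.000738). The circadian repressor BHLHE40 changed by -0.45 ± 0.09 in DU145 and 0.52 ± 0.08 in PC3 (difference -0.97 ± 0.11, adjusted p = 0.000738). In DU145 these 3 carried no mark.

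Histone genes stood on the other side. H2BC3 changed by 0.31 ± 0.09 in DU145 and -1.42 ± 0.12 in PC3 (difference 1.73 ± 0.17, adjusted p = 0.000222). H3C7 changed by 0.36 ± 0.09 in DU145 and -1.01 ± 0.08 in PC3 (difference 1.37 ± 0.12, adjusted p = 6.88e-05). In DU145 both stood below the median level of all genes, 6.945. H2BC3 stood at 6.12 and 6.20 with miR-224, 6.13 with the scrambled mimic and 5.84 and 5.86 in untransfected cells. The scrambled changes of H2BC3 and H3C7, 0.29 and 0.31, were nearly as large as those with miR-224. Of the 45 histone genes measured the change was higher in DU145 than in PC3 for 19 and lower for 3. SHISA3 changed by 0.64 ± 0.15 in DU145 and -0.57 ± 0.12 in PC3 (difference 1.22 ± 0.18, adjusted p = 0.00313) and stood at 6.80 and 6.68 with miR-224, 6.61 with the scrambled mimic and 6.22 and 5.98 in untransfected cells. TYMS changed by -0.53 ± 0.08 in DU145 and -1.21 ± 0.08 in PC3 (difference 0.68 ± 0.11, adjusted p = 0.00487), so it fell in both lines. ZNF367 changed by 0.37 ± 0.09 in DU145 and -0.33 ± 0.08 in PC3 (difference 0.70 ± 0.11, adjusted p = 0.00495), and MKNK2 by 0.82 ± 0.09 in DU145 and 0.17 ± 0.08 in PC3 (difference 0.65 ± 0.12, adjusted p = 0.00885). H2BC3 did not pass in 1 fit of all 15 arrays, after quantile normalization and without each of the 4 arrays in turn (adjusted p between 0.0654 and 0.226). After quantile normalization and without each of the 4 arrays in turn, H3C7 did not pass (adjusted p between 0.0637 and 0.213). For SHISA3 the threshold was missed after quantile normalization and without untransfected array c or a miR-224 array (adjusted p between 0.0618 and 0.125). ZNF367 did not pass without miR-224 array c or an untransfected array (adjusted p between 0.123 and 0.149). After quantile normalization and without miR-224 array a or an untransfected array, BHLHE40 did not pass (adjusted p between 0.0651 and 0.103). The difference for MKNK2 did not pass without PC3 untransfected array c, PC3 miR-224 array b or DU145 untransfected array c, where it lay between 0.58 and 0.62. The 942 differences became 142 without PC3 untransfected array c, 173 without PC3 miR-224 array b, 207 and 226 without DU145 untransfected arrays b and c, 539 without DU145 miR-224 array a and 212 without DU145 miR-224 array c.

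**Figure D5:**
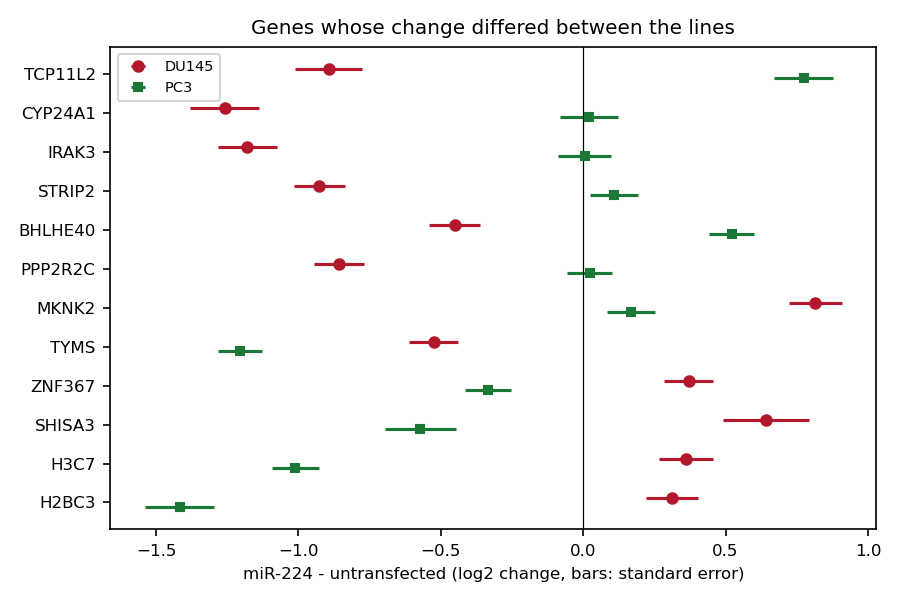
Log2 change of miR-224 against untransfected cells (x axis) in DU145 (red circles) and PC3 (green squares) with the standard error from limma, for 12 genes ranked first by p for that contrast, 6 in each direction, among genes that passed in DU145. TCP11L2 is at -0.89 in DU145 and 0.77 in PC3, and H2BC3 at 0.31 in DU145 and -1.42 in PC3.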

How the data were processed

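Total RNA of DU145 and PC3 cells was hybridized to Affymetrix Human Gene 1.0 ST arrays, 1 array a sample, and groups follow the array titles. Per the series design text and the labels, the authors normalized each line on its own in GeneSpring GX 11.0 with its RMA16 setting, and the deposited values are on the log2 scale. That option is understood to add 16 to each signal, which is not stated, and would make folds of weak genes too small. Genome build and probe set definition are not given in the sources used here. Precision is limited by the few arrays.

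Of 28869 features, 19310 had 1 symbol and were averaged into 18377 genes without a filter on level. Symbols were updated through Entrez numbers in the RefSeq gene table (19279 matched). limma 3.58.1 in R 4.3.3 (statmod 1.5.0) was fitted to the 7 DU145 arrays with 4 group means, empirical Bayes moderation and 3 residual degrees of freedom. All tests were two-sided. The threshold was 0.05 for p adjusted over all genes by Benjamini-Hochberg. Differences between lines came from 1 fit of all 15 arrays. The fit was tested on simulated data. The miR-224 and untransfected arrays share only the letter c, and the deviations of those 2 arrays from their group means correlated at 0.0263 across genes, so letters were not used as pairs.

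Named were the 15 largest falls and rises beyond the control arrays without the mark, the 6 largest of each with the mark, 5 small RNA genes in each direction, up to 4 list members with the smallest p and every host locus gene, and 6 genes in each direction with the smallest p against miR-452 and between the lines. CDH1, KRT19 and AXL were added for their place in the lists. 1 of the 47 lists (1169 of 1288 entries measured) is not reported here. The members, the lists and the naming rule were chosen with earlier results of these data known. Alternatives were the 2 groups or all 15 arrays alone in the fit, genes under percentile 20 left out, features not averaged, quantile normalization, trend and robust moderation, the replicate letter as a block, other controls, other mark sizes, a threshold of 0.01 and each array left out.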

Additional observations from a re-analysis of the deposited data

Results flagged for a closer look

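The change with miR-224 differed between DU145 and PC3 for 43 of the 137 named genes that passed in DU145, by the limma contrast of the changes in the fit of all 15 arrays (adjusted p under 0.05). Over all genes that passed in DU145 it was 624 of 3850 (16.2%), and over all genes tested 5.13%. Of the named genes 12 were chosen by their p for this same contrast. Only those 12 were followed for this contrast with an array left out, and the other differences listed were not checked in that way. Values are the log2 change in DU145 minus that in PC3. The 6 differences with the smallest p below 0 were TCP11L2 -1.67, CYP24A1 -1.28, IRAK3 -1.18, STRIP2 -1.03, BHLHE40 -0.97 and PPP2R2C -0.88. Among interferon and inflammatory genes they were SAMD9 -1.08, IFIT3 -0.82, IFIT1 -0.66 and TNFAIP3 -0.73, and the same genes had scrambled changes in DU145 of -1.04, -0.77, -1.04 and -0.25. In cholesterol synthesis they were MSMO1 -1.01 and HMGCS1 -0.60. In signalling lists they were DUSP6 -1.05, EGR1 -0.73, ANKRD1 -0.78, F3 -0.66, SMAD5 -0.68, SMAD4 -0.48 and PAK2 -0.46. Among traffic and luminal genes they were RAB27B -0.97, RAB38 -0.90, COPG1 -0.57 and STEAP2 -0.57. The other values below 0 were C1orf116 -0.83, EMB -0.72, H4C13 -0.66, CORO1C -0.65, TMEM184C -0.65, SLFN11 -0.60, LIN7C -0.59, H3C11 -0.58, MMP1 -0.57, HIPK3 -0.55, PAN2 -0.49 and CYRIB -0.49. Above 0 were ID1 0.44, TSPAN18 0.48, MKNK2 0.65, TYMS 0.68, ZNF367 0.70, SHISA3 1.22, H3C7 1.37 and H2BC3 1.73. These calls rest on 2 arrays a group, the lines were normalized apart by the authors, and MKNK2 did not pass without PC3 untransfected array c, PC3 miR-224 array b or DU145 untransfected array c (difference between 0.58 and 0.62). Features outside the comparison, with several gene symbols or none, were fitted apart: of 9559, 1 was higher and 15 were lower with miR-224, so 16 passed (0.167%). At an unadjusted p under 0.05 there were 2425 such features (25.4%), against 39.7% of the genes with 1 symbol, and the 2 sets had separate estimates of the spread.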

How the results depend on the processing

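Of 137 named genes that passed, 94 also passed under all 12 alternatives other than the control and the block, while 13 did not pass after quantile normalization and 42 without 1 of the 4 compared arrays. The total, the rises and the falls were 3850, 1000 and 2850 as reported. They were 7161, 2852 and 4309 with only the arrays of the 2 groups, 2557, 1002 and 1555 after quantile normalization, 1020, 111 and 909 against the mean of untransfected and scrambled arrays, 357, 116 and 241 against the scrambled array, and 1184, 76 and 1108 at an adjusted p under 0.01. All 15 arrays in 1 fit gave 1876 rises. With each array left out the total lay between 701 and 7161, the rises between 39 and 2852 and the falls between 650 and 4309.

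With the replicate letter as a replicate block the total was 463, with 34 rises and 429 falls, and 55 of the 137 genes did not pass. The labels do not say whether the letters pair arrays. The compared groups share only the letter c, so the block is given here only. Between the mimics, 728 genes passed with the block and 1585 with the crossed letters, a setting added after seeing the data because the same-lettered arrays correlated at -0.31.

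Marked changes numbered 1624 after quantile normalization, 3358 and 2112 with a mark of 25% and 75%, and between 397 and 1337 with each array left out, against 2871. Genes that passed against both controls ranged from 63 to 86 in the moved leave-outs, against 229. The difference from miR-452 gave 612 genes with only the arrays of the 2 groups, 1714 with all 15 arrays and between 254 and 2152 with each array left out, against 1086. The difference between lines ranged from 142 to 1053, against 942.

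Directions turned in these cases, and the cause was not tested. Against the scrambled array the change was -0.12 for KRTAP10-4, -0.078 for KRTAP4-4, -0.22 for MIR134, -0.10 for MIR320A, -0.046 for MIR326, 0.0021 for SAMD9, 0.11 for SNORD58A, 0.0064 for TMEM184C, -0.19 for GABRA3 and -0.039 for GABRQ. Against the mean of both controls it was -0.046 for GABRA3 and -0.019 for GABRQ. GABRQ was also -0.13 after quantile normalization, -0.0063 with the block, -0.0088 without untransfected array b and -0.0034 without miR-224 array a. Its highest value with an array left out was 0.012, in the reported direction. The counts of gene lists in each direction stayed within 1.5 times the reported count in 747 cases and moved further in 663.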

Other observations

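On the scrambled array 181 of the 2850 genes that fell with miR-224, and 38 of the 1000 that rose, had a change of the opposite sign against untransfected cells. Genes named above show how far the scrambled array could stand on the other side. CLTB, a clathrin light chain, changed by -0.72 with miR-224 and by 0.44 on the scrambled array. RPS16, a ribosomal protein gene, changed by -0.56 with miR-224 and by 0.39 on the scrambled array. DDAH1 changed by 0.63 with miR-224 and by -0.39 on the scrambled array, and ABCA1 by 0.74 and -0.29. These genes were chosen after their values were seen, each scrambled change rests on 1 array, and both changes share the untransfected arrays.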
